A study of Rattus norvegicus with 12 samples.

Results

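Liver at the hepatitis stage of chemical carcinogenesis in the rat was compared with control liver, gene by gene. The members were chosen by the sample label alone: 3 of the 12 arrays of the series carry hepatitis livers and 3 carry normal control livers, and 14213 annotated genes were tested. Rats of the hepatitis group were male adult Sprague-Dawley animals injected into the peritoneum with 70 mg/kg diethylnitrosamine (DEN) once a week in a schedule of 10 weeks, and killed at the end of week 5 "after DEN-treatment", a wording that does not say whether weeks run from the first or the last injection. Control rats were males of the same strain and age class that received distilled water in place of DEN, and the labels do not give their week of sacrifice. All rats had a semipurified basal diet and water at will, an acclimatisation of 1 week, 3 animals to a cage, and sacrifice by 30 mg/kg pentobarbital, so these conditions are common to both groups. The series also holds 3 arrays of livers at the cirrhosis stage (weeks 13 to 14) and 3 of hepatocellular carcinoma (HCC, weeks 23 to 24), from the same DEN schedule. The labels speak of 12 rats killed at each DEN time point without tying an array to a rat; the p-values therefore rest on the spread between arrays, which may be technical.

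DEN is a nitrosamine that hepatocytes activate through cytochrome P450 enzymes into an agent that alkylates DNA. Alkylated and broken DNA activates p53, a transcription factor whose targets halt the cell cycle, feed back on p53 or start apoptosis. The liver is also the organ that turns dietary sugar into fat, makes non-essential amino acids and adjusts both to food supply. When amino acids run short, or the endoplasmic reticulum is stressed, the kinases of the integrated stress response slow translation and raise Atf4, a transcription factor that switches on amino acid synthesis, amino acid transport and the aminoacyl-tRNA synthetases, the enzymes that load each amino acid onto its tRNA.

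Values are intensities of single-colour Rat 230 2.0 arrays in array units, 1 per probe set, and each gene is represented by its brightest probe set. The values of a group are given in the order of replicates 1, 2 and 3. Differences are on the scale log2(value + 16), hepatitis minus control, with their standard error (SE) in the limma fit, and they understate the change of dim genes. The median array intensity was 28.69 to 30.94, and the number of arrays limits the precision of each value. A gene is called, and said to rise or fall, when its p, adjusted after Benjamini and Hochberg for the 14213 genes, is under 0.05.

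The 6 arrays were alike in overall profile: across genes, Pearson correlations were 0.984 to 0.987 among hepatitis arrays, 0.988 to 0.992 among control arrays and 0.957 to 0.981 between the groups. The first principal component of these 6 arrays, with 60.1% of the variance, placed hepatitis replicates 1, 2 and 3 at 33.8, 14.3 and 17.2 and the controls at -24.9, -24.5 and -15.9, so that hepatitis replicate 1 stood farthest from the controls. For Gapdh the signal at the 3' end over that at the 5' end, a sign of RNA integrity that grows with degradation, was 0.38, 0.5 and 0.69 (log2) in hepatitis and 1.02, 0.91 and 0.87 in control. It was thus lower on every hepatitis array. For actin it was 2.14, 2.25 and 2.54 in hepatitis and 2.69, 2.41 and 2.51 in control, so the groups overlapped; the part of RNA integrity in the results was not tested. The 12 hepatocyte markers averaged 12.3, 12.3 and 12.37 (mean log2 level) in hepatitis and 12.24, 12.28 and 12.24 in control, the highest of the lists on all 6 arrays; 0 of the 12 was called (limma), with 1 higher at an unadjusted p under 0.05. At that threshold 1190 of all 14213 genes were higher and 1267 lower.

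Markers of other cells set 3 arrays apart. Cholangiocyte markers averaged 7.15 on hepatitis replicate 1, against 5.81 and 5.86 for hepatitis replicates 2 and 3 and 5.59 to 5.71 in control, and proliferation markers were highest there too, at 6.84. Control replicate 2 had skeletal muscle markers at 7.5, against 5.18 to 5.19 in hepatitis and 5.19 and 5.28 on the other controls; Acta1, the actin of skeletal muscle, read 1196 on that array and at most 17 on the other 5. On control replicate 3 the macrophage and MHC class II markers averaged 9.9 and 9.65, against 9.36 to 9.74 and 8.76 to 9.22 in hepatitis, and 8.64 to 8.81 and 7.26 to 7.27 on the other controls. No macrophage, MHC class II, cholangiocyte, endothelial, T and NK cell, skeletal muscle or proliferation marker was called by limma; at an unadjusted p under 0.05, macrophage and T and NK cell markers had 2 higher each, endothelial markers 1 higher and 1 lower, skeletal muscle markers 1 lower, and the other 3 lists 0. At that unadjusted threshold 1190 of all 14213 genes were higher and 1267 lower. Of the other lists, 2 of 12 stellate cell markers rose (Rgs5 and Cygb), as did 2 of 5 B and plasma cell markers (Jchain and Mzb1) and 2 of 8 neutrophil and mast cell markers (S100a8 and S100a9), while 1 of 5 erythroid markers (Alas2) and 1 of 8 pancreatic acinar markers (Cela1) fell. Over all genes 1.87% rose and 2.12% fell. The Cygb call ended without any 1 array outside HCC other than hepatitis replicate 2, and that of Mzb1 without control replicate 2. In bulk tissue, fewer cells of a type and less RNA per cell cannot be told apart. Among circadian clock genes 3 of 16 rose (18.8%, against 1.87% of all genes), namely Cry1, Clock and Nfil3, by 0.91, 0.55 and 1.09. The repressor Nr1d1 fell by 1.52, and of these 4 only Cry1 was called whichever array was left out. Nr1d1 depended on every control and hepatitis replicate 1, Clock on each of the 9 arrays outside HCC and Nfil3 on all of these but control replicate 1. The labels give neither the hour of sacrifice nor the last meal.

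**Figure D1:**
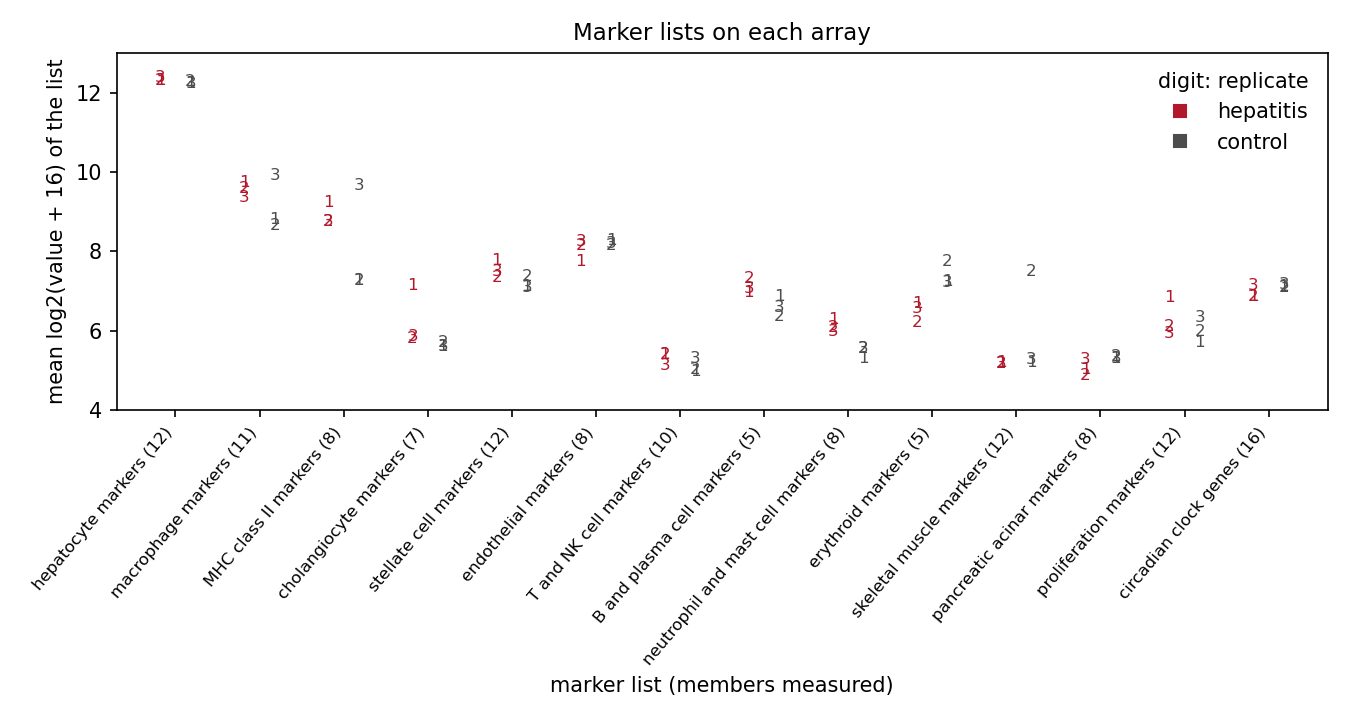
Mean level of each marker list (vertical axis, mean log2(value + 16) of its measured members) on the 3 hepatitis arrays (red digits) and the 3 control arrays (grey digits), each digit being the replicate number. Hepatitis replicate 1 stands apart for cholangiocyte markers at 7.15, control replicate 2 for skeletal muscle at 7.5 and control replicate 3 for MHC class II at 9.65.

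Of 14213 genes tested, 266 rose (1.87%) and 302 fell (2.12%) in hepatitis. A change of at least 2-fold was called for 92 genes upward (0.647%) and 88 downward (0.619%). For all 568 called genes the 3 hepatitis arrays lay on one side of the 3 control arrays; over all genes, called or not, 2144 lay above (15.1%) and 2214 below (15.6%). As a description of genes chosen on these same arrays, relative to the control mean, the called risen genes had a median log2 difference of 0.84, 0.69 and 0.75 on hepatitis replicates 1, 2 and 3, and the called fallen genes -0.85, -0.68 and -0.67. The median difference of all genes was -0.0024, so the 2 groups were centred alike. The counts rest heavily on single arrays. Without control replicate 1 they were 108 up and 96 down, without control replicate 2 they were 96 and 84, and without hepatitis replicate 1 they were 123 and 111; without cirrhosis replicate 1, 2 or 3, which enter only through the shared spread, 192 to 196 genes fell, and without HCC replicate 1 or 2 there were 541 and 459 risen and 537 and 541 fallen genes. Of the 568 called genes 156 were called whichever of the 12 arrays was left out, among them 62 of the 129 called genes that the naming rule picked.

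The largest rise was that of Adam8, described here with other risen genes of the cell surface and matrix. Adam8 encodes a membrane metalloprotease that cleaves proteins off the cell surface and is known chiefly from leukocytes. It read 2524, 1439 and 1586 in hepatitis, against 19.2, 19.9 and 22.8 in control, a rise of 5.63 ± 0.26 (log2, SE; limma adjusted p = 1.01e-05). No control array came within reach of any hepatitis array, and the gene was the largest change in either direction among the 14213. Of its 2 probe sets this was the 1 that was called. Jam3, a junctional adhesion molecule, read 258, 223 and 236 in hepatitis, against 26.6, 23.5 and 27.5 in control (2.61 ± 0.31, adjusted p = 0.00264). Hapln3, a link protein that ties hyaluronan to proteoglycans, read 221, 80.4 and 137 in hepatitis, against 18.7, 17.1 and 16.9 in control (2.18 ± 0.25, adjusted p = 0.00187). Lama5, the laminin alpha chain of many basement membranes, read 241, 203 and 267 in hepatitis, against 24.6, 36.8 and 26.3 in control, a rise of 2.48. Prnp, the prion protein gene, rose by 1.76, and Ccl21, a chemokine that draws T cells and dendritic cells into lymphoid tissue, rose by 1.61, with 187, 206 and 198 in hepatitis, against 46.8, 55 and 60 in control. The calls of Lama5 and Prnp ended without control replicate 1, control replicate 2 or hepatitis replicate 1. Of 29 measured surface proteases and sheddases, only Adam8 rose (3.45%, against 1.87% of all genes). Adamts7 and Adamts9, secreted proteases of the matrix, stood at -0.88 and -0.60 (6.9% fell, against 2.12% of all genes). The median of that list was -0.04. The Adamts9 call ended without control replicate 1 or 2, hepatitis replicate 2 or 3 or any 1 cirrhosis array.

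Several of the largest rises were genes known to act after DNA damage; they were taken from the largest changes and are no list with a count of its own. Cdkn1a, the p21 inhibitor of cyclin-dependent kinases, read 2011, 1669 and 2595 in hepatitis, against 242, 198 and 89.1 in control (3.53 ± 0.31, adjusted p = 0.00057). The cyclin G1 gene Ccng1 read 1561, 960 and 1237 in hepatitis, against 143, 182 and 178 in control (2.77 ± 0.19, adjusted p = 0.000107). Phlda3, which restrains Akt signalling, read 521, 340 and 404 in hepatitis, against 52.4, 57.9 and 59.1 in control (2.58 ± 0.13, adjusted p = 1.24e-05). For these 3 genes, all known as p53 targets, the lowest hepatitis array was several times the highest control. Mdm2, the ubiquitin ligase that degrades p53, rose by 1.68, and the kinase gene Plk2 by 1.69. The antiproliferative gene Btg3 rose by 1.73, with 579, 283 and 300 in hepatitis, against 95.5, 113 and 90.5 in control. Trim36, a ubiquitin ligase, rose by 1.68, and Rprm (reprimo), an inducer of arrest in the second gap phase, by 1.80, a call that ended without hepatitis replicate 1. Aen, a nuclease of p53-dependent apoptosis that was chosen after its values were seen, rose by 1.60.

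Mybl1 belongs to the Myb family of transcription factors and is best known from meiosis in the mouse testis. It read 1022, 500 and 962 in hepatitis, against 14.9, 21.2 and 28.2 in control, and rose by 4.44 ± 0.38 (limma adjusted p = 0.000452), second after Adam8. It was 1 of 2 called genes among 31 measured genes of cell cycle entry and its inhibitors (6.45% rose, against 1.87% of all genes), the other being Btg3. The list's median was 0.10, and the 12 proliferation markers held no called gene. The largest rises also held the repair genes Mgmt and Nhej1. Mgmt, the transferase that takes alkyl groups off guanine in DNA, read 848, 645 and 546 in hepatitis, against 121, 109 and 120 in control (2.37 ± 0.22, adjusted p = 0.000709). Nhej1, a factor of non-homologous end joining, read 243, 137 and 261 in hepatitis, against 16.9, 21.4 and 17.8 in control (2.68 ± 0.19, adjusted p = 0.000125). Pvt1, a long non-coding RNA gene next to Myc, read 338, 223 and 272 in hepatitis, against 40.5, 55 and 34.1 in control, and rose by 2.31.

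Further genes among the largest rises bind or release lipids and retinoids. Rbp7, a cellular retinol-binding protein, read 593, 88.2 and 249 in hepatitis, against 12, 12.8 and 10.2 in control, a rise of 3.21 ± 0.49 (adjusted p = 0.00789, limma) in which the hepatitis arrays differed widely among themselves. It was the only risen gene of 27 measured genes of retinoid metabolism, where Dhrs3, a retinal reductase, fell by 1.07, a call that ended without any 1 array outside HCC other than hepatitis replicate 2. Fabp4, a fatty acid-binding protein known from adipocytes and macrophages, read 234, 115 and 193 in hepatitis, against 32.7, 42.2 and 36.1 in control (1.84 ± 0.23, adjusted p = 0.00338). Lpl, the lipase that releases fatty acids from circulating lipoproteins, rose by 2.56, and the intestinal fatty acid-binding protein Fabp2 by 2.04. Pdk4, a kinase that shuts down pyruvate dehydrogenase, read 1001, 967 and 1176 in hepatitis, against 318, 282 and 270 in control, and rose by 1.80. The Lpl call ended without any 1 of the controls or without hepatitis replicate 1, and that of Fabp2 without any 1 of the 9 arrays outside HCC. Of 35 measured genes of lipid droplets and triglyceride turnover Lpl alone was called (2.86% rose), and of 21 in insulin signalling Pdk4 alone (4.76% rose). In the retinoid list 3.7% rose and 3.7% fell. Over all genes 1.87% rose and 2.12% fell, so in lists of this size a single call is already above these shares.

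Ces2c, a carboxylesterase that hydrolyses esters of drugs and lipids, read 2321, 1123 and 1621 in hepatitis, against 275, 228 and 250 in control (2.62 ± 0.34, adjusted p = 0.00401, limma). It was the 1 called gene of 12 measured hydrolases (8.33% rose, against 1.87% of all genes). The median of that list was -0.02, with differences from -1.71 to 2.62. The cytochrome P450 gene Cyp3a9 read 202, 160 and 371 in hepatitis, against 17.2, 15.9 and 17.2 in control (2.91 ± 0.41, adjusted p = 0.00553). All hepatitis arrays were above all controls for both genes, as the naming rule requires. Gstp1, the pi-class glutathione transferase known as a marker of preneoplastic rat liver foci, read 3688, 854 and 999 in hepatitis, against 350, 354 and 331 in control, and rose by 2.04. Hepatitis replicate 1 was far above the others for Gstp1, and the call ended without any 1 control or any 1 cirrhosis array. Obp3 and Mup5, members of the urinary protein family of male rat liver, rose by 2.79 and 2.06; their probe sets may read several near-identical family members. Mup5 read 102, 165 and 77 in hepatitis, against 15.1, 13 and 13.9 in control, while the Obp3 call ended without any 1 control, without hepatitis replicate 1 or 2, and without cirrhosis replicate 1 or 3. Sds, serine dehydratase, which breaks serine down to pyruvate, read 2097, 327 and 3280 in hepatitis, against 125, 150 and 181 in control, a rise of 3.00 ± 0.69 (adjusted p = 0.0422). Its call ended without any 1 of the 9 arrays outside HCC other than hepatitis replicate 2, the lowest of the 3 hepatitis arrays.

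Among genes known from other organs, Vxn (vexin), studied in the neurogenesis of frog embryos, read 395, 380 and 630 in hepatitis, against 30.4, 24.4 and 32.5 in control (3.39 ± 0.18, adjusted p = 1.91e-05 by limma). Pln, phospholamban, the brake of the calcium pump in heart muscle, read 246, 64.9 and 99.4 in hepatitis, against 7.12, 6.55 and 7.93 in control (2.54 ± 0.36, adjusted p = 0.00553). The control values of Pln lay under 16, so its fold is understated. Skeletal muscle markers averaged 5.18 to 5.19 (mean log2 level) on the hepatitis arrays, and the part of any kind of muscle cell in the Pln rise was not tested. Rgs5, which shortens G protein signals and marks pericytes, read 198, 89.8 and 160 in hepatitis, against 21.9, 35.7 and 37.2 in control. Spsb4, an adaptor of a ubiquitin ligase, read 204, 96.5 and 261 in hepatitis, against 28.6, 28.7 and 29.6 in control. Atp6v1d, a subunit of the proton pump of lysosomes, was the brightest of this group, with 3805, 2477 and 3177 in hepatitis, against 723, 732 and 736 in control (2.06 ± 0.15, adjusted p = 0.000115). Myo7b, a myosin of brush borders, rose by 1.61, and its call ended without any 1 array outside HCC other than hepatitis replicate 2.

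S100a8 and S100a9, the 2 chains of calprotectin in neutrophils and monocytes, rose together. S100a8 read 519, 325 and 450 in hepatitis, against 51.9, 70.9 and 106 in control (2.30 ± 0.37, adjusted p = 0.00986, limma). S100a9 read 674, 379 and 615 in hepatitis, against 75.8, 107 and 103 in control (2.33 ± 0.39, adjusted p = 0.0122), a call that ended without control replicate 1 or hepatitis replicate 1. The other 6 measured neutrophil and mast cell markers, among them Camp at 13.8 to 14.5 in hepatitis, against 12.4 to 15.3 in control, were not called. In both plasma cell genes control replicate 1 came near the hepatitis range. The immunoglobulin probe set Ighl2 read 141, 473 and 830 in hepatitis, against 83.3, 15.7 and 28.5 in control (2.95 ± 0.58, adjusted p = 0.0222), and Jchain, which joins antibodies into polymers, read 292, 567 and 433 in hepatitis, against 191, 45.9 and 72.5 in control (2.05 ± 0.38, adjusted p = 0.0183). The Ighl2 call ended without control replicate 2 or 3 or hepatitis replicate 2 or 3, and that of Jchain without control replicate 2 or 3 or hepatitis replicate 2. The part of plasma cell number in these rises was not tested.

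**Figure D2:**
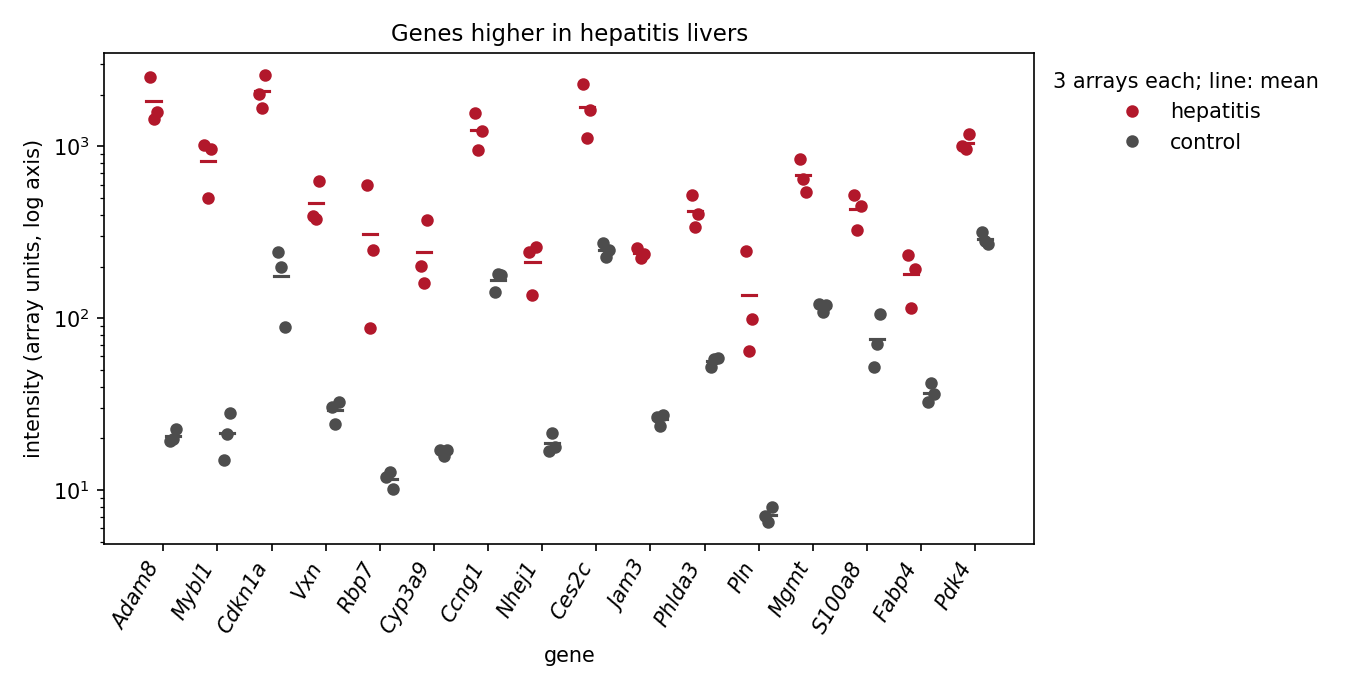
Intensity (vertical axis, array units, log scale) of 16 risen genes on the 3 hepatitis arrays (red, left of each pair) and the 3 control arrays (grey), with the group mean as a line. As the naming rule requires, the 3 hepatitis arrays of each gene lie above its 3 controls, from Adam8 at 1439 or more against 22.8 or less to Pdk4 at 967 or more against 318 or less.

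The 3 deepest falls among called genes were Phgdh, Psat1 and Asns of amino acid synthesis. Phgdh, the first enzyme of serine synthesis, read 39.2, 24 and 24.5 in hepatitis, against 811, 685 and 760 in control (-4.10 ± 0.23, adjusted p = 2.24e-05, limma), with Psat1, the next enzyme, at -3.66 and asparagine synthetase (Asns) at -3.54. Of 13 measured genes of non-essential amino acid synthesis 5 fell (38.5%, against 2.12% of all genes) and 1 rose (7.69%, against 1.87%). The list's median was -0.70. The other fallen genes were Psph, the last step of serine synthesis (94.6, 136 and 94.4 in hepatitis, against 278, 298 and 265 in control), and Gpt2, mitochondrial alanine transaminase, at -0.70. Gls2, the liver glutaminase, rose by 0.82. Cytosolic alanine transaminase Gpt, chosen after its values were seen and not called, read 850, 601 and 1740 in hepatitis, against 339, 358 and 250 in control. The call of Gpt2 ended without control replicate 2, and that of Gls2 without any 1 control or hepatitis replicate 1.

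The aminoacyl-tRNA synthetases fell as a group in count: 9 of 19 measured cytosolic enzymes fell (47.4%, against 2.12% of all genes), with a median difference of -0.49 against -0.0024. Cars1, the cysteine enzyme, read 126, 165 and 165 in hepatitis, against 498, 552 and 432 in control (-1.60 ± 0.16, adjusted p = 0.00126, limma). Yars1, the tyrosine enzyme, read 309, 329 and 348 in hepatitis, against 800, 753 and 694 in control (-1.15 ± 0.07, adjusted p = 3.52e-05). Lars1, the leucine enzyme, read 281, 327 and 347 in hepatitis, against 616, 608 and 605 in control (-0.91 ± 0.07, adjusted p = 0.000238). In each of these the control values were about level and every hepatitis array lay well below them. Sars1, for serine, read 140, 131 and 165 in hepatitis, against 302, 279 and 284 in control, and Mars1, for methionine, 311, 342 and 390 in hepatitis, against 714, 711 and 650 in control. Iars1 (isoleucine), Gars1 (glycine), Eprs1 (glutamate and proline) and Aars1 (alanine) stood at -1.0, -0.96, -0.87 and -0.59. Leaving out 1 array gave 5 to 11 fallen synthetases: the calls of Iars1, Gars1, Eprs1 and Aars1 each ended without control replicate 1, control replicate 2 or hepatitis replicate 1, and some of them without other control or hepatitis arrays, while the other 5 held throughout.

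The 3 fallen synthetases below carry, before the start site used in RefSeq's promoter table (build GRCr8), the C/EBP-ATF response element, a composite site that Atf4 is known to bind at amino acid response genes. They are shown because they belong to the fallen list; capitals mark the match to TGATGNAA on either strand, here read as its reverse complement, and each stretch is on the gene's strand, 5′ to 3′.
Iars1, chr17:15193653-15193716, minus strand: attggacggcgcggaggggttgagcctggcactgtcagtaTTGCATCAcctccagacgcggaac
Mars1, chr7:65023754-65023810, minus strand: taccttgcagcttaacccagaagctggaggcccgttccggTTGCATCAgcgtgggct
Aars1, chr19:55908330-55908417, plus strand: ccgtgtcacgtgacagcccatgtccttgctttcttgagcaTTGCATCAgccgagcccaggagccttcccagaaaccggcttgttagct
The matches begin at positions -24, -17 and -112 from that start; the outermost start of each gene's RefSeq record lies farther upstream. All 3 have the same 8 letters. In the Aars1 stretch a CACGTG E-box, which does not overlap the match, begins at -146. The element stood in the 250 bases before the start of 5 of 17 synthetases with a promoter in the table (29.4%), of 9 of 254 fallen genes (3.54%), of 4 of 212 risen genes (1.89%) and of 235 of all 11699 genes (2.01%). Among the 5 synthetases the other 2, Nars1 and Tars1, were not called, at -0.49 and -0.25. In the other amino acid lists the element stood in 1 of 10 promoters of synthesis genes, 3 of 19 of transporters and 0 of 17 of one-carbon genes. Those genes were Got1, Slc1a4, Slc38a1 and Slc7a1, none of them called, at 0.87, 0.95, 0.04 and -0.67. The sterol regulatory element TCACNCCAC stood in 0.943% of risen, 1.18% of fallen and 0.974% of all promoters, and the E-box CACGTG in 5.66%, 9.45% and 7.85%; the 3 motifs were searched on both strands and none of them contains another. A match is a description of the letters and not evidence of binding.

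Of 22 measured genes of one-carbon metabolism, which takes carbon units from serine, 5 fell (22.7%, against 2.12% of all genes) and 17 were not called, with a median of -0.10. Mthfd2, the mitochondrial folate dehydrogenase, read 37.7, 33.1 and 30.5 in hepatitis, against 213, 224 and 143 in control (-2.05 ± 0.23, adjusted p = 0.0018, limma). Shmt2, the mitochondrial enzyme that splits serine, read 445, 553 and 633 in hepatitis, against 1019, 1160 and 983 in control (-0.95 ± 0.14, adjusted p = 0.00572). Aldh1l1, which oxidises formyl-folate, read 1448, 1555 and 1609 in hepatitis, against 3153, 3373 and 3119 in control (-1.06 ± 0.16, adjusted p = 0.00883). These 3 held whichever array was left out. Amt of the glycine cleavage system fell by 0.65 and Mthfd1 by 0.32; the Amt call ended without any 1 array outside HCC other than control replicate 3, and that of Mthfd1 without any 1 control or hepatitis replicate 1 or 2. Of 25 amino acid transporters, 2 fell (8.0%, against 2.12% of all genes). They were Slc3a2, the heavy chain shared by several exchangers (502, 428 and 535 in hepatitis, against 1267, 1189 and 1066 in control), and the glycine transporter Slc6a9, at -1.42, a call that ended without any 1 control or hepatitis array.

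Nupr1, Atf4, Trib3 and Ppp1r15a, known from the integrated stress response, fell; they were picked as single genes and say nothing of that response as a whole. Nupr1, a stress-induced nuclear protein, read 183, 195 and 423 in hepatitis, against 1088, 1023 and 1103 in control (-2.04 ± 0.3, adjusted p = 0.00672, limma). Chosen after their values were seen, Atf4 itself read 712, 849 and 855 in hepatitis, against 1629, 1348 and 1171 in control (-0.76 ± 0.13, adjusted p = 0.0118), and its targets Trib3 (141, 91 and 127 in hepatitis, against 483, 236 and 277 in control) and Ppp1r15a (47.6, 60 and 77 in hepatitis, against 230, 148 and 117 in control) stood at -1.31 and -1.19. For each of these 4 genes no hepatitis array reached the lowest control. The call of Atf4 ended without control replicate 2, that of Ppp1r15a without control replicate 2 or hepatitis replicate 1, and those of Trib3 and Ppp1r15a in the fit on the 6 arrays alone. In the list of sestrins and mTORC1 regulators 3 of 24 fell (12.5%, against 2.12% of all genes), with a median of -0.09. They were Ddit4, an inhibitor of mTORC1, at -1.02, Eif4ebp1, which mTORC1 holds off the cap-binding factor, at -0.79, and Nprl2, a part of the amino acid sensing complex, at -0.47. None of these 3 calls held without control replicate 1 or 2, and without single arrays the list had 0 to 4 fallen members. Fgf21, a fasting and stress hormone of the liver, read 45.6, 36.7 and 58.5 in hepatitis, against 967, 697 and 272 in control (-3.24 ± 0.66, adjusted p = 0.0255); its controls spanned a wide range, and the call ended without control replicate 1 or 2 or any 1 hepatitis array.

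Among the largest falls were genes that act in turning sugar into fat, picked by the size of their change and not as a list. Pklr, liver pyruvate kinase, read 86.5, 143 and 162 in hepatitis, against 685, 822 and 699 in control (-2.39 ± 0.29, adjusted p = 0.00266, limma). Me1, the malic enzyme that makes NADPH for fatty acid synthesis, read 183, 173 and 120 in hepatitis, against 880, 967 and 830 in control (-2.40 ± 0.23, adjusted p = 0.000995). Acaca, acetyl-CoA carboxylase, read 208, 327 and 310 in hepatitis, against 874, 828 and 957 in control (-1.62 ± 0.21, adjusted p = 0.00338). The elongase gene Elovl6 read 46.7, 62.1 and 40 in hepatitis, against 295, 211 and 248 in control. These 4 falls held whichever array was left out. Fatty acid synthase (Fasn) and ATP citrate lyase (Acly) fell, at -2.30 and -1.56. The desaturase gene Scd, chosen after its values were seen, read 446, 346 and 157 in hepatitis, against 3637, 4227 and 3201 in control, and was not called (-3.59 ± 0.87, adjusted p = 0.0517, limma). Upstream, Gckr, the regulatory protein of glucokinase, read 205, 246 and 337 in hepatitis, against 1103, 1177 and 757 in control, and Pfkfb1, the liver enzyme that sets fructose 2,6-bisphosphate, 235, 373 and 377 in hepatitis, against 1275, 1276 and 1268 in control. The call of Fasn ended without control replicate 1, that of Gckr without control replicate 1 or 2 or hepatitis replicate 1, that of Acly without any 1 control or hepatitis replicate 1 or 3, and that of Pfkfb1 without any 1 of the 9 arrays outside HCC.

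Of 14 measured genes of the pentose phosphate pathway and NADPH supply, 3 fell (21.4%, against 2.12% of all genes), with a median of -0.14. Beside Me1, these were transketolase (Tkt, at 605, 530 and 423 in hepatitis, against 922, 909 and 923 in control) and Shpk, a sugar kinase that feeds the pathway, at -0.82 and -0.75. Around pyruvate and the citric acid cycle 3 of 25 fell (12.0%, against 2.12% of all genes), with a median of 0.07. They were pyruvate carboxylase (Pc, at 347, 366 and 428 in hepatitis, against 623, 714 and 565 in control), the pyruvate dehydrogenase phosphatase Pdp2 and the kinase Pdk1, at -0.71, -0.65 and -0.59. Pdk4 rose and Pdk1 fell, so these 2 of the kinases of pyruvate dehydrogenase moved in opposite directions. Of 27 mitochondrial carriers 2 fell (7.41%, against 2.12% of all genes). They were Slc25a33, a pyrimidine nucleotide carrier (49.8, 73.2 and 71.3 in hepatitis, against 135, 169 and 160 in control), and the aspartate-glutamate carrier Slc25a12, at -1.09 and -0.63. Apart from Me1, Pdk4 and Slc25a33 these calls ended without control replicate 1, without control replicate 2 and, except for Tkt, without hepatitis replicate 1; Tkt and Shpk needed further control, hepatitis and cirrhosis arrays. Without single arrays the pentose phosphate list had 1 to 5 and the citric acid cycle list 0 to 4 fallen members.

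Transcription factors and hormone receptors of hepatocytes were among the falls. Nr0b2 (SHP), the nuclear receptor that represses bile acid synthesis, read 111, 256 and 49.8 in hepatitis, against 801, 1030 and 885 in control, a difference of -2.8 ± 0.58 (adjusted p = 0.0279, limma). Cebpa, a master factor of hepatocyte metabolism, read 208, 341 and 317 in hepatitis, against 1158, 856 and 796 in control, and Zfp354a, a zinc finger repressor known from rat kidney, 93.3, 90.5 and 454 in hepatitis, against 885, 1275 and 1112 in control. Although no hepatitis array reached a control in these 3, the arrays within a group differed by up to several times. Lepr, the leptin receptor, read 26.8, 27.5 and 42.7 in hepatitis, against 175, 106 and 121 in control (-1.62 ± 0.19, adjusted p = 0.00264). Klf9, a thyroid hormone-induced factor, and Dio1, the deiodinase that activates the hormone, stood at -1.28 and -1.0. They were the called genes of thyroid hormone action, 2 of 14 (14.3%, against 2.12% of all genes). Receptors for glucagon (Gcgr), vasopressin (Avpr1a) and extracellular nucleotides (P2ry2) stood at -0.87, -1.14 and -0.96, while the cAMP phosphodiesterase Pde4b rose by 0.82. Of 31 measured genes of G protein-coupled and cAMP signalling, 9.68% thus fell and 3.23% rose, against 2.12% and 1.87% of all genes. Of these calls only Lepr held throughout: those of Cebpa and Zfp354a ended without control replicate 1 or 2 or hepatitis replicate 1, that of P2ry2 without control replicate 2, and those of Nr0b2, Klf9, Dio1, Gcgr, Avpr1a and Pde4b without control replicate 1 or 2, hepatitis replicate 1, cirrhosis replicate 1 or 3 and further arrays. Without single arrays the thyroid list had 0 to 4 and the receptor list 0 to 4 fallen members.

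Other large falls were in single genes of secreted and signalling proteins. Tsku, a leucine-rich protein secreted by the liver, read 106, 205 and 152 in hepatitis, against 1397, 1153 and 910 in control (-2.8 ± 0.38, adjusted p = 0.00479, limma). A2m, alpha-2-macroglobulin, an acute phase protein of the rat, read 195, 573 and 135 in hepatitis, against 3369, 1232 and 1995 in control (-2.94 ± 0.49, adjusted p = 0.012). H19, an imprinted non-coding RNA, read 87.7, 62.1 and 46.8 in hepatitis, against 1170, 392 and 366 in control (-2.84 ± 0.38, adjusted p = 0.00431). Control replicate 1 was the highest of the controls for all 3 genes. Nrep, named for nerve regeneration, read 326, 348 and 83.1 in hepatitis, against 1723, 2232 and 1159 in control. Zfp36, tristetraprolin, which degrades cytokine mRNAs, and Arrdc3, an arrestin-like regulator of receptor traffic, stood at -1.71 and -1.64. Mknk2, a kinase of translation factor eIF4E, read 203, 249 and 204 in hepatitis, against 419, 428 and 523 in control, and Sema4g, a semaphorin, 155, 228 and 266 in hepatitis, against 535, 488 and 410 in control. Atrn, attractin, fell by 1.62, a call that was lost in the mean of its probe sets, and Gfra3, a receptor of the GDNF family, stood at -1.49. The A2m call ended without control replicate 1 or hepatitis replicate 1, that of Nrep without control replicate 1 or 2, and those of Zfp36, Arrdc3 and Gfra3 without control replicate 1 or 2, hepatitis replicate 1, any 1 cirrhosis array and further arrays.

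A last set of falls held transporters and enzymes of varied function. Abcg5, a subunit of the sterol exporter into bile, read 37.6, 42.4 and 47.1 in hepatitis, against 268, 164 and 142 in control (-1.79 ± 0.25, adjusted p = 0.0051, limma). Slc13a3, a dicarboxylate carrier, fell by 1.60, and Slc13a4, a sulphate carrier, stood at -1.58. Otub2, a deubiquitinase, read 39.3, 54.7 and 50.5 in hepatitis, against 266, 272 and 245 in control (-2.12 ± 0.19, adjusted p = 0.000554). The values of Otub2 were tight in both groups. Alox15, a lipoxygenase, read 26.9, 24.9 and 28 in hepatitis, against 91.8, 176 and 65.8 in control, and Cyp1a1, the P450 induced through the Ah receptor, 15.8, 60.2 and 59.3 in hepatitis, against 254, 151 and 332 in control. Extl1, a glycosyltransferase of heparan sulphate, stood at -1.79, Lcmt1, which methylates protein phosphatase 2A, at -1.80, and Cavin3, a coat protein of caveolae, at -1.76. Erythroid markers averaged 6.68, 6.2 and 6.57 in hepatitis and 7.25, 7.74 and 7.21 in control (mean log2 level). Genes of red cell formation that fell were Alas2, the erythroid enzyme of haem synthesis (53.2, 22.9 and 50 in hepatitis, against 161, 242 and 137 in control), and the factor Nfe2 (8.96, 13.3 and 9.02 in hepatitis, against 109, 47.9 and 46.2 in control). Haemoglobin beta (Hbb), not called, read 2857, 904 and 2167 in hepatitis, against 3994, 5984 and 4074 in control, and the part of blood content in these falls was not tested. Cela1, an elastase of the pancreas, read 134, 52.3 and 68.8 in hepatitis, against 592, 766 and 540 in control, while the other 7 pancreatic acinar markers were not called, with differences of -0.04 to 0.45. The calls of Slc13a4 (without control replicate 1 or 2), Cyp1a1 (without control replicate 1), Extl1 (without control replicate 2), Lcmt1, Cavin3 and Cela1 (each without any 1 control or hepatitis replicate 1, and further arrays) depended on single arrays.

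**Figure D3:**
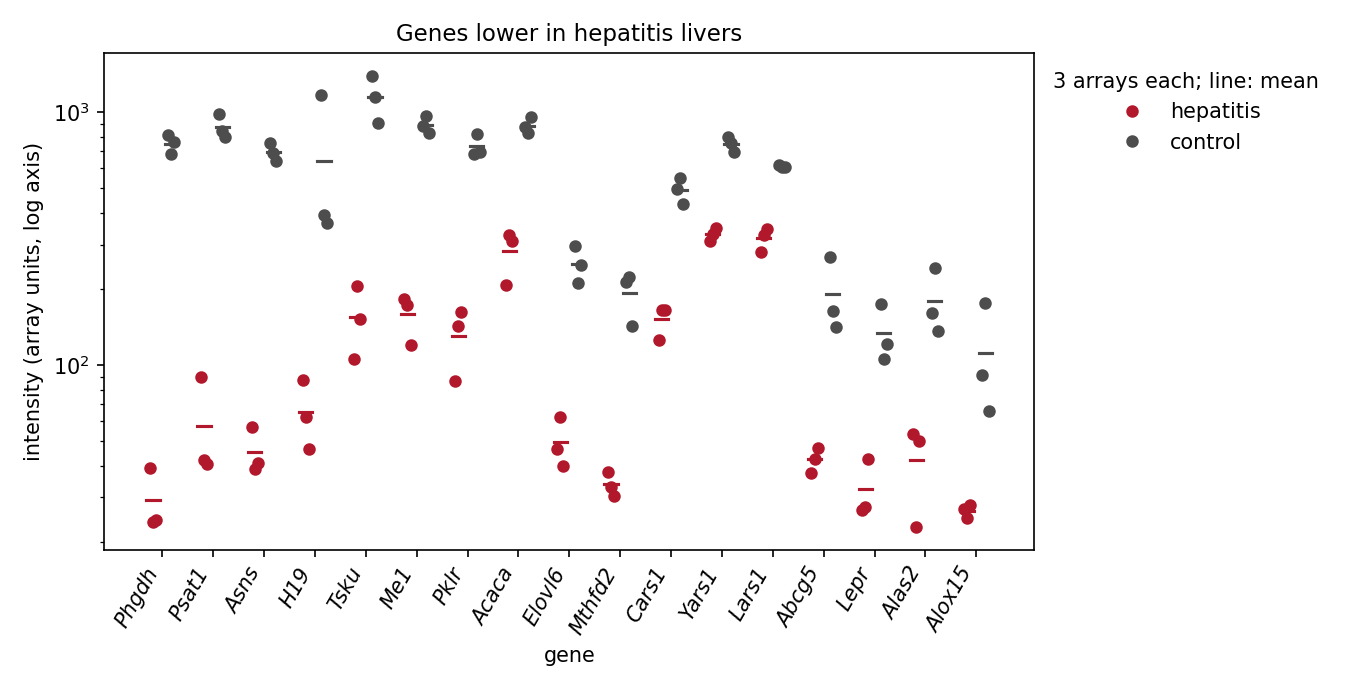
Intensity (vertical axis, array units, log scale) of 17 fallen genes on the 3 hepatitis arrays (red, left of each pair) and the 3 control arrays (grey), with the group mean as a line. As for all called genes that fell, the 3 hepatitis arrays of each gene lie below its 3 controls, from Phgdh at 39.2 or less against 685 or more to Lars1 at 347 or less against 605 or more.

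Signalling lists held small changes in few members. Over all genes 1.87% rose and 2.12% fell, so in lists of this size a single call is already above these shares. Id2, a target of BMP signals, read 1836, 2101 and 1640 in hepatitis, against 988, 909 and 650 in control, and was the 1 called gene of 23. Among cytokine receptors, STATs and SOCS proteins 2 of 29 rose, Socs5 by 0.55 and Socs3, a feedback inhibitor of interleukin signals, by 0.23, with 31.7, 30.6 and 31.3 in hepatitis, against 23.7, 23.6 and 25.5 in control. Of 29 Notch and Hippo genes, Notch1 rose by 0.39 and the kinase Lats1 by 0.38. Dusp3, a MAP kinase phosphatase, read 799, 671 and 566 in hepatitis, against 331, 359 and 313 in control (0.98 ± 0.13, adjusted p = 0.00364, limma), and with Mknk2 made up the 2 calls among 25 genes. Of 29 axon guidance genes the receptors Plxnb1 and Unc5b rose by 0.69 and 1.06, beside the fall of Sema4g. Dusp3, Plxnb1, Sema4g and Mknk2 held whichever array was left out. The calls of Id2, Socs5, Notch1 and Lats1 ended without any 1 control or hepatitis replicate 1 or 2, and with cirrhosis arrays left out; those of Socs3 and Unc5b ended without control replicate 1 or 2 or hepatitis replicate 1 and with some further arrays left out. With single arrays left out, 0 to 4 Notch and Hippo genes, 0 to 3 cytokine signalling genes and 1 to 3 axon guidance genes rose.

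Single members were called in further lists, where 1 call is already above the shares over all genes, 1.87% risen and 2.12% fallen. Sgpl1, which cleaves sphingosine phosphate, read 27.3, 26.7 and 31.4 in hepatitis, against 55.3, 70.4 and 59.5 in control, the 1 call of 26 sphingolipid genes. Acmsd, which steers tryptophan breakdown away from NAD, read 48.4, 62.1 and 54.9 in hepatitis, against 29.3, 24.3 and 28.3 in control, the 1 call of 22. Both held whichever array was left out. Tubb6, a tubulin, rose by 1.29 among 30 cytoskeletal genes, of which 11 lay above all controls, against 15.1% of all genes. Hexa, a lysosomal hexosaminidase, rose by 0.56 among 29 genes of autophagy and lysosomes, and the nuclear receptor Esrra rose by 0.44 beside the fall of Nr0b2 among 28. Ugdh, which makes UDP-glucuronic acid, fell by 0.73 among 24 conjugation genes, Alox15 was the 1 call among 28 eicosanoid genes, and Fut1, a fucosyltransferase at 6.84 to 10.3 in hepatitis and 17 to 23.1 in control, fell by 0.55 among 29 glycosyltransferases. The calls of Tubb6, Hexa, Esrra, Ugdh and Fut1 ended without control replicate 1, and all but that of Fut1 without control replicate 2, among other arrays. No member was called by limma in 8 lists. Over all 14213 genes, 1190 were higher and 1267 lower at an unadjusted p under 0.05 (limma). At an unadjusted p under 0.05, 2 of 26 steroid hormone genes were higher and 4 lower, of 26 heat shock genes 2 and 3, of 17 metallothionein, zinc and copper genes 2 and 1, of 17 peroxisome biogenesis genes 0 and 6, of 13 polyamine genes 2 and 1, of 28 purine and pyrimidine genes 4 and 3, of 29 cell junction genes 4 and 1, and of 20 annexins and S100 proteins 7 and 0. In the last, 10 of 20 members lay above all controls, as did 15.1% of all genes, and the median was 0.28, with differences from -0.22 to 1.37. S100a11, Anxa2 and S100a6, not called and chosen after their values were seen, stood at 1.37, 1.17 and 0.96. Hepatitis replicate 1, with its high cholangiocyte markers, was the highest for S100a10 of this list, at 982, 394 and 404 in hepatitis, against 280, 234 and 324 in control.

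**Figure D4:**
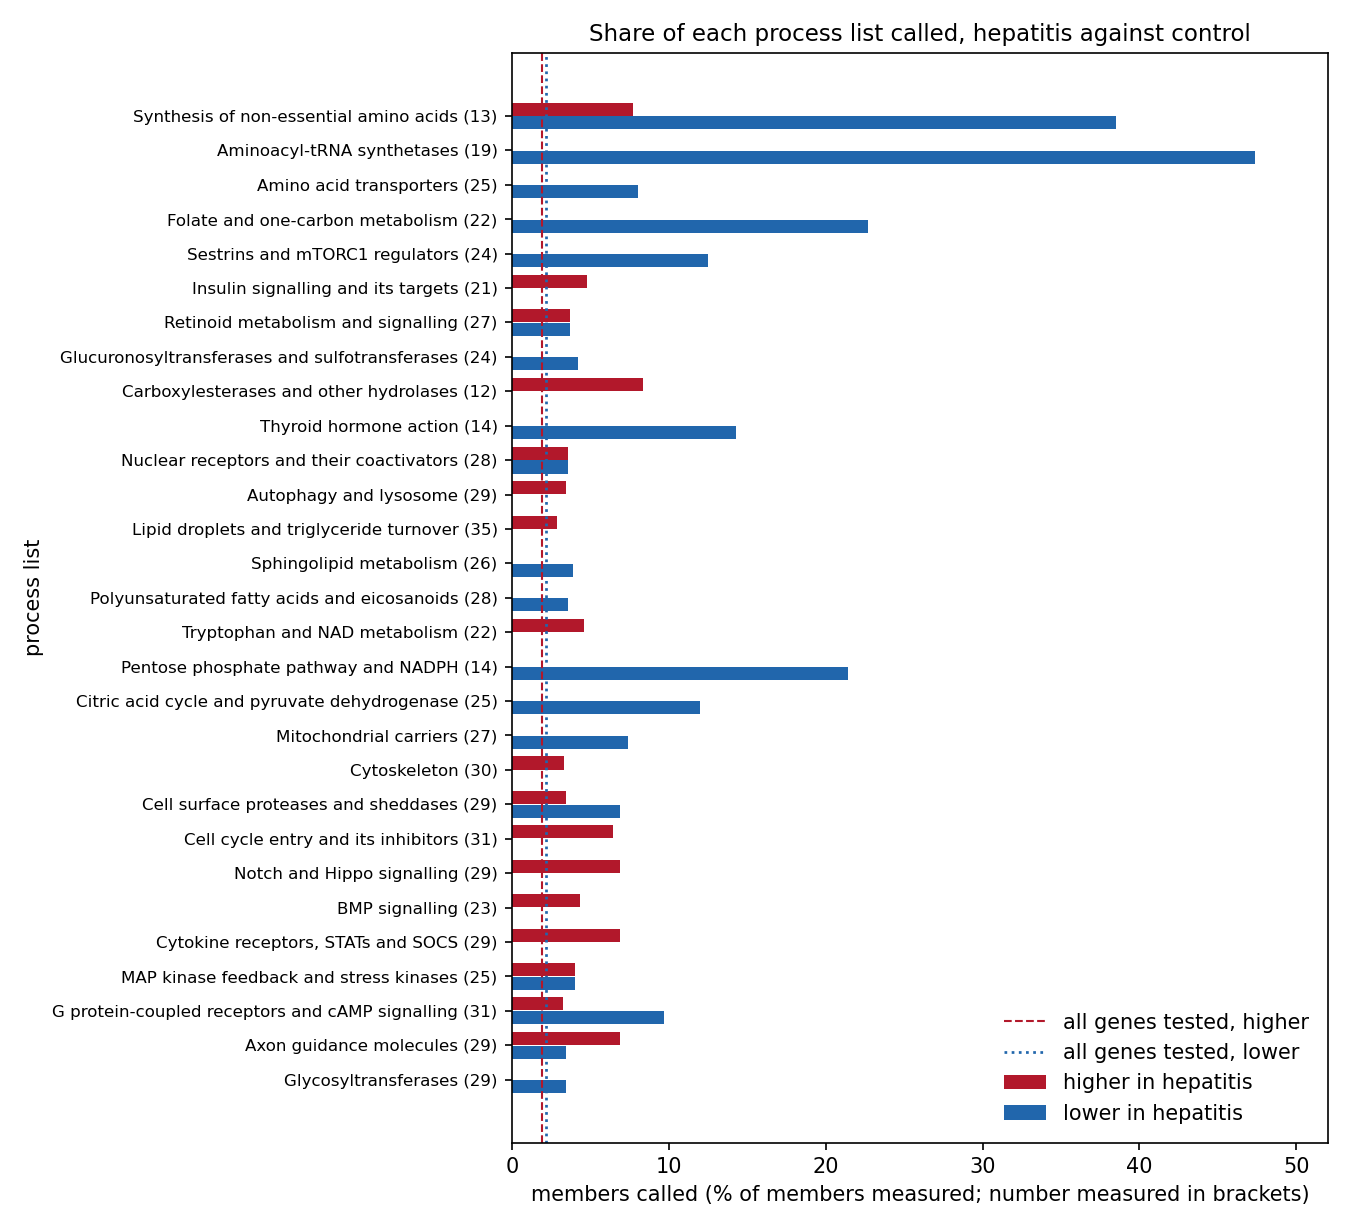
Share of measured members called higher (red) or lower (blue) in hepatitis than in control (horizontal axis, percent) for the 29 process lists with at least 1 called member, with the number measured in brackets and the shares of all genes tested, 1.87% and 2.12%, as dashed and dotted lines. Aminoacyl-tRNA synthetases (47.4%) and synthesis of non-essential amino acids (38.5%) have the longest bars, both downward, and with few members a single call is already above the lines.

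To see where hepatitis differs from the next stage, it was set against cirrhosis directly. In the same limma fit 80 genes were higher in hepatitis than in cirrhosis (0.563% of 14213) and 56 lower (0.394%); this contrast uses the same hepatitis arrays as the one with control, and 32 of the 136 calls held whichever array was left out. Adam8 had 2524, 1439 and 1586 in hepatitis, against 140, 103 and 85.6 in cirrhosis (3.87 ± 0.26, adjusted p = 0.000237). Cdkn1a had 2011, 1669 and 2595 in hepatitis, against 244, 197 and 205 in cirrhosis (3.17 ± 0.31, adjusted p = 0.00201). Nhej1 had 243, 137 and 261 in hepatitis, against 27.1, 20.8 and 20.1 in cirrhosis (2.53 ± 0.19, adjusted p = 0.0006). For all 3 the hepatitis arrays were several times the highest cirrhosis array. Hapln3 read 221, 80.4 and 137 in hepatitis, against 17.4, 14.9 and 18.3 in cirrhosis, a difference of 2.21. Ces2c was at 2321, 1123 and 1621 in hepatitis, against 340, 297 and 277 in cirrhosis (2.35 ± 0.34, adjusted p = 0.0143). Rbp7, Vxn, Mybl1, Pln and Ccng1 completed the 10 largest, at 2.76, 2.75, 2.43, 2.30 and 1.96. The DNA transferase Mgmt was also higher in hepatitis than in cirrhosis, by 1.74, as were Phlda3, Atp6v1d and Mdm2 by 1.90, 1.74 and 1.41. The calls of Ces2c, Pln, Rbp7 and Mybl1 ended without hepatitis replicate 3 or any 1 cirrhosis array, that of Rbp7 also without any 1 control and that of Mybl1 without hepatitis replicate 1; the others named held.

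Of the 10 genes described as lower in hepatitis than in cirrhosis, Obp3 was called above control at the hepatitis stage, Cd14 below it, and the other 8 neither. Obp3 read 288, 217 and 75.4 in hepatitis, against 4003, 1917 and 4611 in cirrhosis (-4.15 ± 0.61, adjusted p = 0.0148, limma). Aldh3a1, an aldehyde dehydrogenase, read 23.4, 19.8 and 21.6 in hepatitis, against 151, 152 and 106 in cirrhosis (-2.0 ± 0.17, adjusted p = 0.000748). Akr7a3, the aldo-keto reductase that detoxifies aflatoxin aldehydes in the rat, read 1744, 1044 and 882 in hepatitis, against 4181, 4716 and 4244 in cirrhosis. The naming rule took only genes whose hepatitis and cirrhosis arrays do not overlap, so in each of these no hepatitis array reached the lowest cirrhosis array. Ddit4l, a relative of Ddit4, read 59.1, 28.2 and 37.8 in hepatitis, against 235, 285 and 226 in cirrhosis, and Pcp4, a calmodulin-binding peptide, 28.7, 20 and 22.4 in hepatitis, against 164, 211 and 108 in cirrhosis. Between hepatitis and control Aldh3a1, Akr7a3, Ddit4l and Pcp4 differed by 0.20, -0.42, 0.25 and 0.27. Epha3, a receptor tyrosine kinase, Stac3, a muscle adaptor, Mug1, a protease inhibitor of the macroglobulin family, and Dhrs7l1, a dehydrogenase by name, stood at -1.54, -2.56, -2.14 and -2.55 against cirrhosis. Cd14, the endotoxin co-receptor of macrophages, was low against both: it read 166, 103 and 170 in hepatitis, against 406, 499 and 556 in cirrhosis and 321, 443 and 406 in control (-1.65 and -1.34). Aldh3a1, Akr7a3 and Epha3 held whichever array was left out. The calls of Ddit4l, Dhrs7l1, Mug1 and Stac3 ended without any 1 cirrhosis array, among others, and that of Cd14 without any 1 cirrhosis array only. That of Obp3 ended without cirrhosis replicate 1 or 3 and that of Pcp4 without cirrhosis replicate 1. Against control the Cd14 call ended without control replicate 2 or 3 or hepatitis replicate 1 or 2.

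Among the fallen amino acid genes, Phgdh was at 39.2, 24 and 24.5 in hepatitis, against 74.1, 77.1 and 93.1 in cirrhosis (-1.12 ± 0.23, adjusted p = 0.0578, limma), a difference that was not called. Cirrhosis too lay below control for Phgdh, Psat1, Asns, Mthfd2, Cars1 and Yars1, with log2 differences of -2.98, -2.73, -3.2, -1.86, -1.1 and -0.97. The falls of these genes were thus not particular to the hepatitis stage. Aldh1l1 of the one-carbon list was called: its 1448, 1555 and 1609 in hepatitis stood against 3068, 3241 and 3426 in cirrhosis (-1.07 ± 0.16, adjusted p = 0.0184), with controls at 3119 to 3373. That call ended without hepatitis replicate 1 or 3 or any 1 cirrhosis array. Ugdh was lower than in cirrhosis as well, with 1052, 1178 and 872 in hepatitis, against 2381, 2455 and 2357 in cirrhosis (-1.21).

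**Figure D5:**
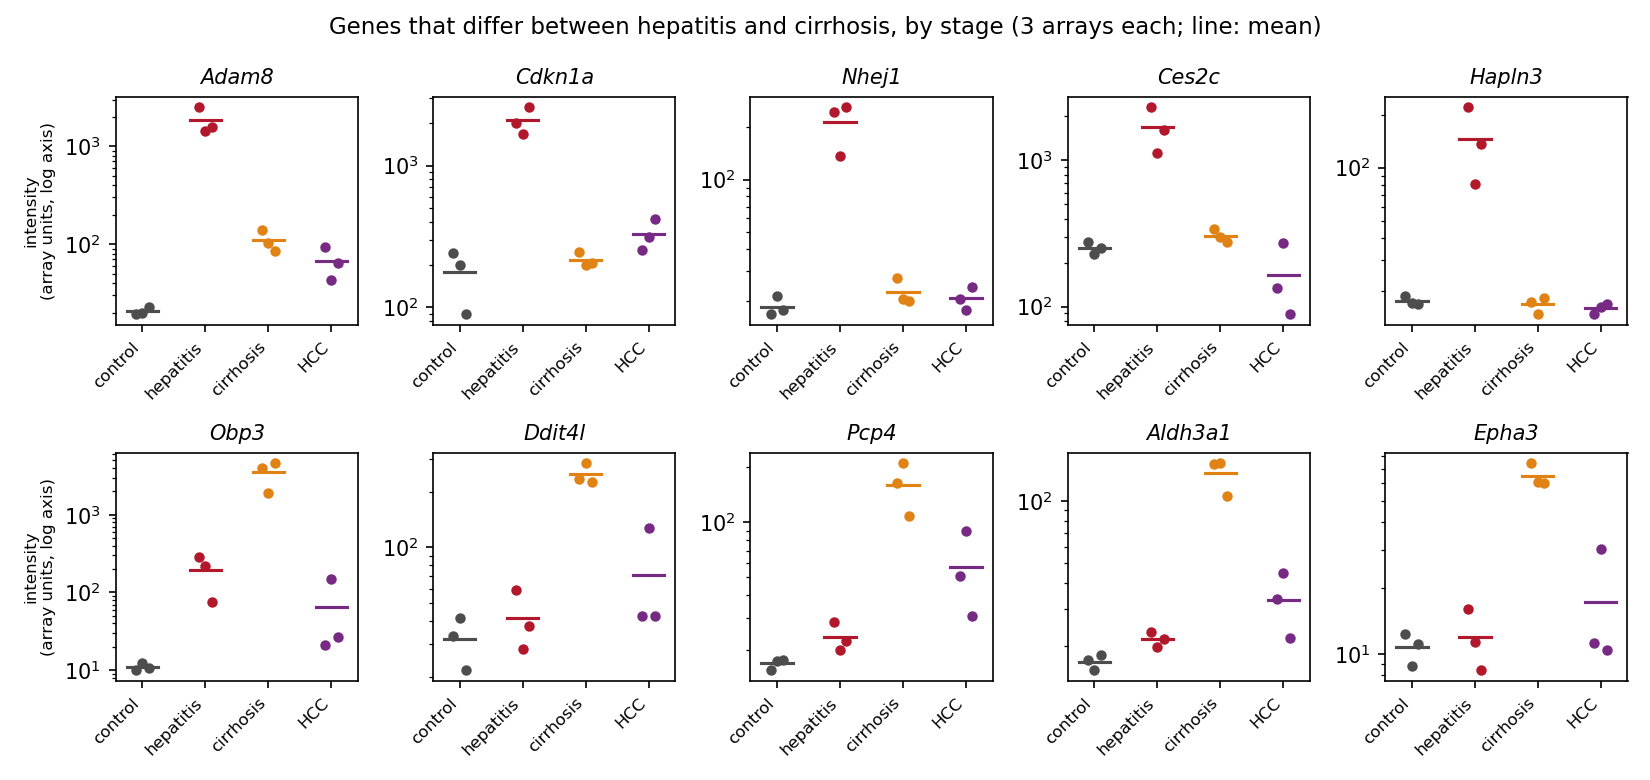
Intensity (vertical axes, array units, log scale, a range of its own in each panel) of 5 genes higher (top) and 5 lower (bottom) in hepatitis than in cirrhosis, for control, hepatitis, cirrhosis and HCC, 3 arrays each, with the group mean as a line. As the naming rule requires, the 3 hepatitis arrays of the top genes stand above the 3 of cirrhosis, and those of the bottom genes stand below. Of the bottom 5 only Obp3 was called against control.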

How the data were processed

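RNA of 12 rat tissue samples, 3 per group, was measured on single-colour arrays; groups and replicate numbers are those of the labels. The intensity values were used as the authors deposited them, on a linear scale, 1 per probe set and array. MAS5 and RMA stand in the submitters' processing notes, and which of them made the values is not stated. Probe sets (31099, of which 57 array controls) were named from the platform annotation with symbols updated through RefSeq (GRCr8): 20826 had 1 gene, 436 several and 9780 none. The brightest probe set stood for each of 14213 genes, 4526 of which had several. All 12 value columns were used.

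Differences of log2(value + 16) were tested with limma 3.58.1 (R 4.3.3; lmFit, eBayes, 2-sided) with 1 mean for each of 4 groups over the 12 arrays, 8 residual and 1.8 prior degrees of freedom, and Benjamini-Hochberg adjustment over all genes. The code was tested on simulated data. Tables were made with numpy 2.4.6 and pandas 2.3.3 under Python 3.11.15, figures with matplotlib 3.10.9.

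Named genes are the 40 largest rises and 40 largest falls among called genes whose groups do not overlap, passing over unnamed loci. To these come the 10 largest differences from cirrhosis in each direction, among called genes whose hepatitis and cirrhosis arrays do not overlap. Up to 5 called members of each of 37 process lists and members of 14 marker lists were added. In the lists of amino acid synthesis and aminoacyl-tRNA synthetases, which had more than 5 called members, all of these are named. The further ones, Gpt2, Lars1, Sars1, Eprs1 and Aars1, were added with their values known. Members of the amino acid lists with the C/EBP-ATF response element are named for that match. For any other gene the text states that its values were known when it was chosen. Not every named gene is described. The lists hold 1146 genes, 1026 of them measured. The comparison, lists and rules were chosen with earlier results of these data known. Alternatives changed the pseudocount, normalization, filter, probe set rule, arrays in the fit, variance model and block, and left out each array in turn.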

Additional observations from a re-analysis of the deposited data

Results flagged for a closer look

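Probe sets without a gene in the annotation, which the comparisons by gene do not use, also changed: hepatitis was above control for 77 and below it for 114 of 9780 such probe sets (limma, adjusted over all probe sets). Together these were 1.95% of the unnamed probe sets, against 3.41% of those with a gene. The largest read 519, 789 and 1136 in hepatitis, against 52.1, 19.8 and 21.1 in control, a rise of 4.14 ± 0.43 (log2, SE; limma adjusted p = 0.00168), and another rose by 3.80, with 453, 569 and 2055 in hepatitis, against 121, 19.4 and 27.4 in control. The largest fall read 16.8, 49.6 and 18.5 in hepatitis, against 220, 135 and 275 in control (-2.38 ± 0.35, adjusted p = 0.0083).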

How the results depend on the processing

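Of the 129 called genes under the naming rule, none changed direction under any setting tried; 112 to 125 kept their call under another pseudocount, quantile normalization, the dimmest 30% of genes left out (4 calls lost, 5 genes not tested), the mean of all probe sets, the fit on the 6 arrays alone, a trended robust prior or the replicate block, all 129 without HCC or with array weights, and 68 (without control replicate 1 or 2) to 129 with 1 array left out. Counts of risen and fallen genes, 266 and 302 as reported, were 450 and 446 on the 6 arrays alone, 1045 and 1075 on the 9 arrays without HCC, whose spread is larger (median SD 0.207, against 0.104 in hepatitis), and 1037 and 1122 with array weights. With 1 array left out they ranged from 96 to 541 and from 84 to 541. Changes of at least 2-fold (92 up, 88 down) were 139 and 123 with pseudocount 1, 51 and 60 with 64, 143 and 140 without HCC, and 162 and 154 with array weights; with 1 array left out they ranged from 56 to 122 and from 45 to 126. Against cirrhosis (80 higher, 56 lower) there were 249 and 208 on the 6 arrays alone, 421 and 413 without HCC, and 453 and 513 with array weights; with 1 array left out they ranged from 24 to 179 and from 15 to 154. With the replicate block 250 genes rose and 271 fell against control, and 47 were higher and 28 lower against cirrhosis. Same-numbered hepatitis and control arrays had deviations from their group means correlated at -0.204, -0.115 and -0.252. With 3 arrays a group, such values cannot tell whether same-numbered arrays share a batch or a pairing. Settings not given here kept these counts within 1.5 times. Of the 568 calls 432 were shared with the fit on the 6 arrays alone and 568 with that without HCC. Among the 129 genes under the naming rule, 16 lost their call on the 6 arrays alone. They were Sds, Ighl2, Jchain, Gstp1, Myo7b, Zfp354a, Nr1d1, Gls2, Ddit4, Klf9, Dio1, Adamts9, Notch1, Lats1, P2ry2 and Pde4b. The cause of these differences between settings was not tested. With 3 arrays a group, a gene that missed the threshold is not shown to be the same in both groups, and dim genes near 16 have understated folds.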
